A study of Mus musculus with 24 samples.

Results

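Uteri of mice given only the oil vehicle were compared between 40 h and 4 h after a first injection, a contrast that holds no hormone. The 12 vehicle arrays of the series were chosen by treatment from 24 arrays in all: 6 at 40 h (3 of progesterone receptor knockout mice, PRKO, and 3 of wild-type mice) and 6 at 4 h (3 PRKO and 3 wild type). All mice, of either genotype, were ovariectomized at 6 wk of age, and 2 weeks later received 100 µl of sesame oil. Mice of the 40 h groups had 4 injections at intervals of 12 h and were killed 4 h after the last, whereas mice of the 4 h groups had 1 injection, so the sampling times lay 36 h apart. Another 6 arrays came from PRKO mice given progesterone (P4, 1 mg per mouse, in the same oil), 3 at 40 h and 3 at 4 h. They serve below as a comparison with the same times and injections but other animals. RNA of 5 mice was pooled for each genotype and treatment. Whether the arrays of a group were made from separate pools is not stated in the labels. Every error given here is therefore a spread between arrays that may be technical, and not a spread between mice. The labels also give neither the hour of the day of any injection or dissection nor a hybridization date. The number of injections, the time since surgery, the hour of the day and any array batch that coincides with time cannot be told apart.

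Ovariectomy removes the main source of oestrogen and progesterone, and the uterus of such a mouse is a resting organ of smooth muscle, stroma and a thin epithelium. Handling, injection and anaesthesia can act on stress genes, among them heat shock chaperones and targets of glucocorticoids. The uterus, like most organs, also runs a molecular clock, in which CLOCK and BMAL1 (Arntl) drive the Per, Cry, Nr1d and Dbp genes through E-box sequences, so that the RNA of Dbp and Nr1d1 swings widely over a day. The comparison asks which transcripts differ over this interval when no hormone is given.

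The arrays measured a uterus at both times, and Pgr did not separate the times. Smooth muscle markers stood near the top of the signal range, with Acta2 (smooth muscle actin) at the 99.8th percentile of mean signal and Tagln (transgelin) at the 99.5th, and the epithelial keratin Krt8 stood at the 90.9th. The Pgr probe set was dim (23.3rd percentile), with a lowest, median and highest scaled signal of 120, 134 and 157 at 40 h, against 121, 135 and 149 at 4 h, a log2 fold change of 0.02 ± 0.06 (standard error, limma adjusted p = 0.868). The probe's place relative to the deleted part of the gene is not given, so it does not check the genotype here. The spiked hybridization controls, bacterial and phage transcripts added in fixed amounts before hybridization, had a mean log2 signal of 9.29 ± 0.60 at 40 h and 10.1 ± 0.53 at 4 h (SD, n = 6 each), a difference of -0.79. An exact two-sided permutation test within genotypes gave p = 0.045, and 0.21 adjusted over 14 scores. Gapdh signal at the 3′ end over that at the 5′ end, a sign of RNA integrity, was 1.46 ± 0.09 at 40 h and 1.81 ± 0.92 at 4 h (SD, n = 6 each), where a single array, wild type 4 h replicate 2, reached 3.68 (exact permutation test, adjusted p = 0.77).

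With the genotypes averaged, the change between the times was small. Of 12422 probe sets, 343 (2.76%) passed at an adjusted p under 0.05 with both genotypes averaged, of which 198 (1.59%) were higher and 145 (1.17%) lower at 40 h. The fit was made with limma on log2(scaled signal + 32), which compresses the changes of dim genes, and the median absolute log2 change of the called probe sets was 0.36. An unadjusted p under 0.05 was found for 2631 probe sets. Were the arrays independent, as the fit took them, 621 would be expected by chance. Same-numbered arrays of the genotypes had correlations of 0.04 to 0.60 at 4 h, so this excess does not measure the change with time. All 343 had the same sign in both genotypes, which the averaging favours. For 452 probe sets (3.64% of all), the 6 arrays of 40 h lay wholly above (282, 2.27%) or wholly below (170, 1.37%) the 6 of 4 h, and 239 of the called ones were among them.

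The count of calls and its split by direction both depended on single arrays and on the processing. With the control score as a covariate, chosen after the data were seen, 0 probe sets passed (smallest adjusted p = 0.0531, and 1966 at an unadjusted p under 0.05). In that fit all 343 kept their sign and an unadjusted p under 0.05, with a median of 96.0% of their change, while the median standard error was 0.0921 with the score and 0.0737 without it. Leaving out an array gave 51 calls without PRKO 40 h replicate 2, 57 without PRKO 4 h replicate 3, 78 without wild type 40 h replicate 2, 89 and 95 without PRKO 40 h replicates 3 and 1, 134 without wild type 4 h replicate 1, and 143 without PRKO 4 h replicate 2. It gave 176 and 226 without wild type 40 h replicates 1 and 3, 472 without PRKO 4 h replicate 1, 495 without wild type 4 h replicate 3, and 633 without wild type 4 h replicate 2, the array with the high Gapdh ratio. The split of the calls moved as well, from 57.7% higher here. Higher probe sets made up 68.6% of 443 calls with the deposited signal as it stands, 47.5% of 360 after quantile normalization, and 49.5% of 210 among probe sets with a mean signal of at least 200. With an array left out the share was between 41.2% (without PRKO 40 h replicate 2) and 63.4% (without wild type 4 h replicate 2). It was under 50% also without wild type 40 h replicate 2 (43.6%), PRKO 40 h replicate 3 (48.3%), PRKO 4 h replicate 3 (43.9%) or wild type 4 h replicate 1 (45.5%).

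Among the 10 highest changes of single genes whose arrays separated completely were genes of lysosomes, lipid export and transcription. Psap, the precursor of the lysosomal saposins, had a lowest, median and highest signal of 456, 484 and 655 at 40 h, against 112, 216 and 401 at 4 h. The change was 1.14 ± 0.21 on the log2 scale (adjusted p = 0.0206). Bag6, which guards newly made membrane proteins, had 385, 443 and 485 at 40 h, against 228, 262 and 315 at 4 h. This is a log2 fold change of 0.66 ± 0.08 (adjusted p = 0.00742). Abca1, the transporter that exports cholesterol, had 516, 546 and 650 at 40 h, against 256, 345 and 442 at 4 h. On the log2 scale the difference was 0.67 ± 0.12 (adjusted p = 0.0183). No array of 40 h overlapped one of 4 h for these genes, and in PRKO uteri given P4 the log2 changes were 0.83 for Psap, 0.61 for Bag6 and 0.22 for Abca1. The co-receptor gene Nrp1 (0.65), which serves semaphorins and VEGF, the homeobox gene Hoxc9 (0.57) and Nfia, a transcription factor (0.48), rose likewise. So did Cggbp1 (0.56), which binds CGG repeats, Shkbp1 (0.54), the matrix glycoprotein gene Reln (0.51) and Snrpb2 (0.48), a component of the U2 splicing particle. The changes of these other 7 in PRKO uteri given P4 were 0.17 (Snrpb2) to 0.48 (Nrp1).

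The 10 lowest such changes included a signalling kinase, a transcription factor and a histone variant. Map3k7, the kinase TAK1 downstream of TGF-beta and interleukin-1 receptors, had a lowest, median and highest signal of 64.7, 80.9 and 95.4 at 40 h, against 117, 176 and 214 at 4 h. The log2 fold change was -0.85 ± 0.11 (adjusted p = 0.00791). Macroh2a1, a histone variant of silent chromatin, had 125, 191 and 244 at 40 h, against 294, 344 and 371 at 4 h. Its log2 fold change was -0.74 ± 0.11 (adjusted p = 0.00875). Rsrp1, a bright probe set, had 1187, 1333 and 1814 at 40 h, against 1833, 2372 and 2652 at 4 h. The change was -0.71 ± 0.10 on the log2 scale (adjusted p = 0.00791). The groups of arrays did not overlap for any of these. Gata2, a transcription factor that acts with the progesterone receptor in the uterus (-0.74), the dynein regulator Ndel1 (-0.66), Bex1 (-0.64) and the co-repressor Ctbp2 (-0.61) fell too. The remaining ones were Septin2 (-0.56), a cytoskeletal GTPase, Aldh3a2 (-0.53), a fatty aldehyde dehydrogenase, and Ssb (-0.53), the La protein that binds new small RNAs. In PRKO uteri given P4 the changes were near 0 for Gata2 (-0.01 ± 0.26), Ssb (-0.04 ± 0.14) and Aldh3a2 (-0.10 ± 0.13). The other 7 stood there at -0.57 (Bex1) to -0.28 (Ctbp2), with -0.43 for Map3k7, -0.29 for Macroh2a1 and -0.50 for Rsrp1. The plot of these 20 genes by array shows the separation in vehicle uteri.

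**Figure D1:**
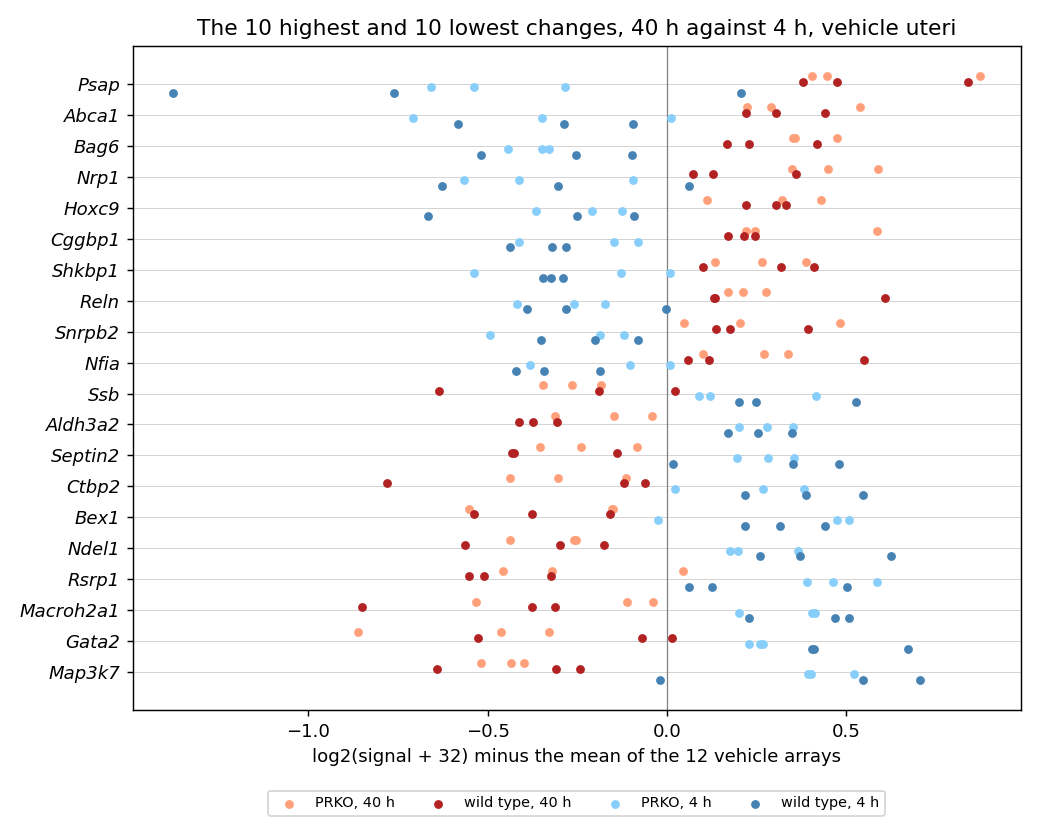
Scaled signal of the 10 highest and 10 lowest changes on each of the 12 vehicle arrays, as log2(signal + 32) minus the gene's mean over the arrays (horizontal axis), with 1 point per array and colours for PRKO and wild type at 40 h (reds) and 4 h (blues). For every gene the 6 points of 40 h lie on 1 side of the 6 of 4 h, which was a condition for being shown, and Psap has the widest spread at 4 h.

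The calls were then followed with each array left out in turn. Bag6, Hoxc9, Cggbp1, Map3k7, Gata2, Macroh2a1, Rsrp1, Ndel1, Bex1, Septin2 and Aldh3a2 passed with any array left out. Each other gene of these 20 lost its call without at least 1 array. The highest adjusted p was 0.0578 for Psap and Shkbp1, 0.0532 for Abca1, 0.0641 for Nrp1, 0.0705 for Reln, 0.0738 for Snrpb2, 0.0837 for Nfia, 0.0806 for Ctbp2 and 0.0822 for Ssb. PRKO 40 h replicate 2 ended the call of each of these 9. PRKO 4 h replicate 3 ended those of Psap, Nrp1, Reln, Snrpb2, Nfia, Ctbp2 and Ssb, and PRKO 40 h replicate 1 ended those of the same genes. PRKO 40 h replicate 3, wild type 40 h replicate 2, PRKO 4 h replicate 2 and wild type 4 h replicate 1 ended those of some of the 9.

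The other probe sets of the same genes mostly did not move with the named ones. Of the 20 genes, 15 had another probe set, 21 in all, of which 11 had the sign of the named one, 10 the opposite sign, and 1 passed. That one was of Bag6 (0.41, adjusted p = 0.0112), whose remaining probe sets stood at 0.13 and -0.14. For Psap, the named probe set was at the 54.5th percentile of signal, and the others, at the 98.6th and 86.8th, gave 0.07 and -0.19. The bright Gata2 probe set (94.4th percentile) gave 0.05 where the named dim one (15.3rd) gave -0.74. Brighter probe sets also had the opposite sign for Abca1 (-0.06), Macroh2a1 (0.07) and Aldh3a2 (0.20). Reln came closest to a repeat, with 0.34 at its second probe set (adjusted p = 0.0633). Over all the called probe sets that name a single gene (296, of 289 genes), 173 belonged to genes with another probe set, and for 10 of these another one was called the same way and for 4 the other way. The others of these genes (275) had a median change of 0.04 in the direction of the called one, whose own median was 0.36, and 179 had its sign. Probe sets that the manufacturer marks as designed with relaxed rules (suffix r) made up 16.3% of the calls and 7.25% of all probe sets, and those that match a gene family (suffix f) 15.5% and 8.65%. A change at a named gene is therefore a measurement of that probe set.

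**Figure D2:**
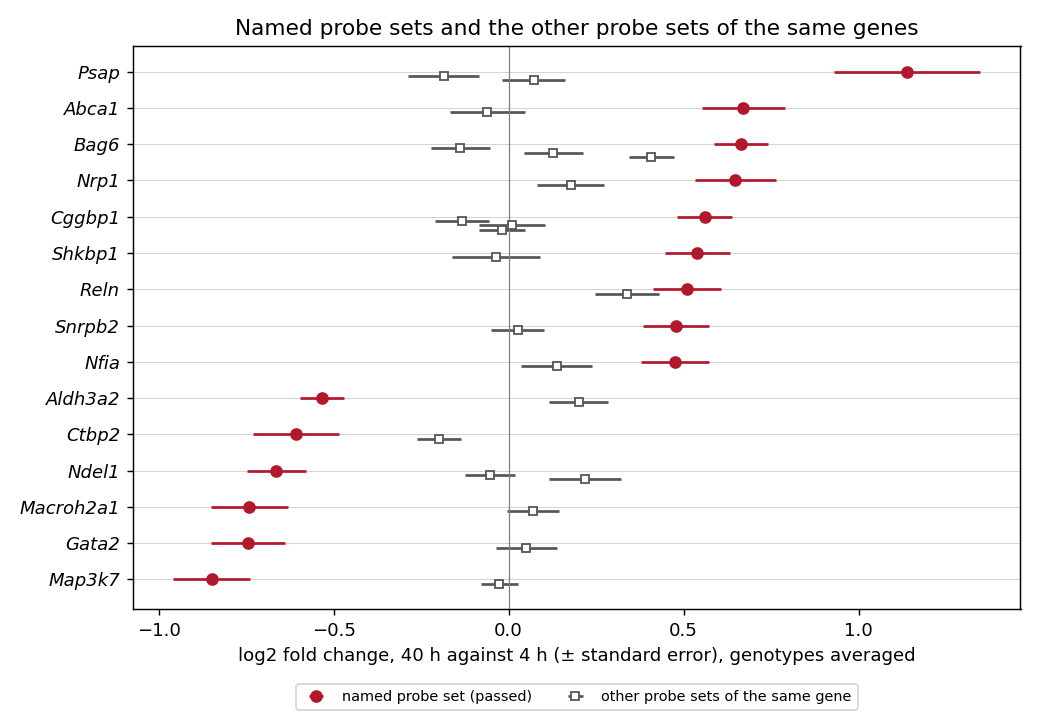
Log2 fold change at 40 h against 4 h, with its standard error as a bar, for the named probe set (filled circles) and every other probe set of the same gene (open squares), for the 15 of the 20 genes that have one. Most squares lie near 0, and only 1, of Bag6, passed the test.

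The inducible heat shock genes Hspa1a and Hspa1b fell. Hspa1a, a 70-kDa chaperone, had 898, 884 and 787 in PRKO and 1309, 1135 and 739 in wild-type uteri at 40 h, against 1415, 1210 and 1934 in PRKO and 1372, 1264 and 1596 in wild-type uteri at 4 h. This is a log2 fold change of -0.61 ± 0.14 (adjusted p = 0.0397). Hspa1b, its near-identical neighbour, had 1234, 1187 and 1072 in PRKO and 2043, 1475 and 1129 in wild-type uteri at 40 h, against 1731, 1877 and 2528 in PRKO and 1641, 1902 and 2009 in wild-type uteri at 4 h. On the log2 scale the difference was -0.53 ± 0.13 (adjusted p = 0.04998). All PRKO arrays of 40 h lay below all PRKO arrays of 4 h for both genes, while wild type 40 h replicate 1 overlapped its 4 h arrays. The probes may read either copy, so these count as 1 observation. Leaving out any 1 of 8 arrays ended the Hspa1a call (adjusted p at most 0.101): each but wild type 40 h replicate 1, PRKO 4 h replicates 1 and 2 and wild type 4 h replicate 2. Leaving out any 1 of 10 ended the Hspa1b call (at most 0.12): each but wild type 40 h replicate 1 and PRKO 4 h replicate 1. Under settings that kept all arrays, Hspa1b passed in 4 of 14, with an adjusted p of at most 0.151, and Hspa1a in 12 of 14 (at most 0.131). In PRKO uteri given P4 the changes were -0.22 for Hspa1a and -0.19 for Hspa1b.

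Of the 17 measured genes of the heat shock list, 3 fell and 1 rose, where Hspa1a and Hspa1b are 1 observation, so that 2 separate falls were measured. Of all 8251 named genes, 1.48% had a probe set that fell and 2.05% one that rose. The median of the list was -0.03, beside 0.02 over all genes. Fkbp4, an HSP90 co-chaperone of steroid receptors, fell at 1 of its probe sets (-0.36 ± 0.07, adjusted p = 0.0211) and stood at 0.05 at the brighter one. Hspb1, a small heat shock protein, rose at a dim probe set (0.30 ± 0.07, adjusted p = 0.0412; 10.4th percentile). The abundant chaperones Hspa8 (-0.13 ± 0.14) and Hsp90aa1 (-0.10 ± 0.08 at its bright probe set), Dnajb1 (-0.18 ± 0.08) and Hsph1 (0.02 ± 0.27) did not pass. Without wild type 40 h replicate 2 or PRKO 4 h replicate 3 the Fkbp4 call was lost (adjusted p at most 0.0672). The Hspb1 call was lost without any 1 of 9 arrays (at most 0.111): each but wild type 40 h replicate 2, PRKO 4 h replicate 1 and wild type 4 h replicate 2.

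The promoters of the 4 heat shock genes that passed are shown for the letters GAANNTTC, the core of the heat shock elements that heat shock factor is known to bind. The stretches run from 200 to 51 bases before the annotated start, 5′ to 3′ on the strand of the gene (RefSeq, GRCm38.p6). Capitals mark the motif, which is the same on both strands.
Hspa1a, chr17:34972207-34972356, minus strand: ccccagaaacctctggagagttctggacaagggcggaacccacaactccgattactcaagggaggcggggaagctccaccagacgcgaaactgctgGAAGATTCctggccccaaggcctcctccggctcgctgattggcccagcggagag
Hspa1b, chr17:34959289-34959438, minus strand: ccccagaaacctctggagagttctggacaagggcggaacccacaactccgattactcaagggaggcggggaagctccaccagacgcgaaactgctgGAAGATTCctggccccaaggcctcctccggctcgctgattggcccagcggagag
Fkbp4, chr6:128438707-128438856, minus strand: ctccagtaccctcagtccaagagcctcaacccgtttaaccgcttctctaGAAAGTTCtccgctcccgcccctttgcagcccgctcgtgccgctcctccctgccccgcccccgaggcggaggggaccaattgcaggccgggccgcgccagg
Hspb1, chr5:135887719-135887868, plus strand: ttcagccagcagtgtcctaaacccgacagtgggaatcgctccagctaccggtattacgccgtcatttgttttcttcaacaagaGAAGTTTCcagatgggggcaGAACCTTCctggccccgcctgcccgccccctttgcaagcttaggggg
The Hspa1a and Hspa1b stretches are identical at 150 of 150 bases. The motif was found in 7 of the 14 measured list members with a promoter in the table, where any window of a gene counted. The 7 include both Hspa1a and Hspa1b. Of all 32851 promoter windows of this length 3.81% held it, a share per window and not per gene. The other members that hold the motif are Dnaja1, Hspd1 and Hspe1, whose changes (0.03 ± 0.09, -0.19 ± 0.07 at the bright probe set, and -0.33 ± 0.09) did not pass.

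Of the 22 measured genes of acute phase and innate defence, 2 fell and 0 rose, beside 1.48% of all genes with a probe set that fell and 2.05% with one that rose. The list's median was 0.03. Nfkbia, the inhibitor that NF-kappa-B itself induces, had 1132, 1143 and 1347 in PRKO and 1413, 1268 and 1109 in wild-type uteri at 40 h, against 1490, 1502 and 1651 in PRKO and 1637, 1742 and 1564 in wild-type uteri at 4 h. The log2 fold change was -0.37 ± 0.07 (adjusted p = 0.0266). All 6 arrays of 40 h lay below all 6 of 4 h, and the change in PRKO uteri given P4 was -0.48 ± 0.15, while the second probe set of the gene gave 0.02. Vcam1, the adhesion molecule of activated endothelium, fell (-0.65 ± 0.12, adjusted p = 0.019), with changes of -0.37 in PRKO and -0.94 in wild-type uteri. The genotype difference of 0.57 ± 0.24 did not pass, and the other Vcam1 probe sets stood at -0.01 and -0.02. The Nfkbia call was lost without any 1 of 5 arrays (adjusted p at most 0.0833): PRKO 40 h replicates 1 and 2, wild type 40 h replicate 2, PRKO 4 h replicate 3 and wild type 4 h replicate 1. That of Vcam1 was lost without any 1 of 4, namely PRKO 40 h replicates 1 and 2, wild type 40 h replicate 2 and PRKO 4 h replicate 3 (at most 0.0672).

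The glucocorticoid and immediate early lists held no call. Of 22 glucocorticoid-responsive genes 0 passed in limma, with a median of -0.09, while 4 had a probe set higher and 3 one lower at an unadjusted p under 0.05. Of 24 immediate early genes 0 passed, with a median of -0.02, and 4 were higher and 1 lower at that level. Of all 12422 probe sets, 2631 reached that level in either direction, a share per probe set and not per gene. Over all genes, 2.05% had a probe set that passed higher and 1.48% one that passed lower. The glucocorticoid list held Ddit4, a brake on mTOR signalling, at -0.50 ± 0.16 (adjusted p = 0.106), Klf9 at 0.37 ± 0.10 (0.0683) and 0.03 ± 0.11 at its 2 probe sets, and Sgk1, a kinase of salt transport, at -0.27 ± 0.16. The immediate early list held Fos at -0.57 ± 0.28 (0.256) and the stress-induced Klf4 at -0.36 ± 0.09 (0.0571).

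The clock was represented by 19 measured genes, of which 1 fell and 1 rose, with a median of 0.01. Beside these, 1.48% of all genes had a probe set that fell and 2.05% one that rose. Tef, a transcription factor of the same family as Dbp, had 1608, 1814 and 1672 in PRKO and 1718, 1496 and 1695 in wild-type uteri at 40 h, against 2188, 2207 and 1929 in PRKO and 2257, 1985 and 1827 in wild-type uteri at 4 h. Its log2 fold change was -0.30 ± 0.07 (adjusted p = 0.0427). No array of 40 h reached one of 4 h, and the change in PRKO uteri given P4 was -0.37 ± 0.13. Btrc, a ubiquitin ligase subunit that marks PER proteins for decay, rose at 1 probe set (0.25 ± 0.06, adjusted p = 0.0402) and stood at 0.16 ± 0.06 at the other. Leaving out an array ended the Tef call except for wild type 4 h replicates 2 and 3 (adjusted p at most 0.102). It ended that of Btrc except for PRKO 4 h replicate 2 and wild type 4 h replicates 2 and 3 (at most 0.103). The core activators Arntl (0.21 ± 0.07, adjusted p = 0.137) and Clock (0.21 ± 0.12), the repressors Per1 (-0.10 ± 0.10), Per2 (-0.12 ± 0.07) and Per3 (0.11 ± 0.07), Cry1 (0.06 ± 0.09 at its bright probe set) and Cry2 (0.12 ± 0.08) did not pass. Neither did the BMAL1 partner Npas2 (0.01 ± 0.07), the repressor Bhlhe40 (-0.14 ± 0.08), the Arntl activator Rora (0.19 ± 0.05, adjusted p = 0.0642, and -0.03 ± 0.15 at its 2 probe sets) or Nfil3 (0.03 ± 0.07 and 0.13 ± 0.20), which acts against Dbp. Of the kinases that act on clock proteins, Csnk1e stood at 0.13 ± 0.07, the 4 probe sets of Csnk1d at -0.18 to 0.18 and the 4 of Csnk2a1 at -0.20 to 0.13, and none of these passed.

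Dbp and Nr1d1, the genes of the widest daily swing, differed more between arrays of 1 group than between the times. Dbp, a transcription factor driven by the clock, had 176, 322 and 576 on PRKO replicates 1, 2 and 3 and 191, 356 and 659 on the wild-type replicates of the same numbers at 40 h, against 726, 504 and 584 in PRKO and 650, 925 and 387 in wild-type uteri at 4 h. The change was -0.78 ± 0.30 on the log2 scale (adjusted p = 0.16). Nr1d1, the repressor REV-ERB alpha, had 238, 599 and 1064 in PRKO and 229, 599 and 951 in wild-type uteri at 40 h, against 722, 387 and 306 in PRKO and 648, 680 and 354 in wild-type uteri at 4 h. This is a log2 fold change of 0.10 ± 0.37 (adjusted p = 0.909). At 40 h the arrays of the same number in the 2 genotypes lay close together, whereas the numbers lay far apart. The ratio of replicate 3 to replicate 1 was taken after 32 was added to each signal, as in the fit. This makes it smaller than the ratio of the plain signals. For Dbp it was 2.92-fold in PRKO and 3.09-fold in wild-type uteri, and for Nr1d1 4.05-fold in PRKO and 3.77-fold in wild-type uteri. On that scale, a 2-fold difference between the same 2 numbers, in the same direction in both genotypes, was sought. Of 8188 probe sets with a mean signal of at least 200, those of Dbp and Nr1d1 alone (2, 0.0244%) had one at 40 h. At 4 h, 30 (0.366%) had one. A Nfil3 probe set that did not count had 326.5, 225.5 and 159.1 in PRKO and 361.5, 267.8 and 146.9 in wild-type uteri at 40 h. Its plain signals on replicates 1 and 3 were more than 2-fold apart in both genotypes. The pattern of the replicate numbers was found after the values were seen and carries no test.

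On the P4 arrays of 40 h, Dbp was again lowest on replicate 1 and highest on replicate 3 in both genotypes. It had 144, 283 and 648 in PRKO and 175, 216 and 315 in wild-type uteri given P4 at 40 h, for replicates 1, 2 and 3. At 4 h the PRKO uteri given P4 had 708, 988 and 806. The Dbp change in PRKO uteri given P4 was -1.35 ± 0.36 (unadjusted p = 0.00242, adjusted p = 0.256), and that of Nr1d1 -1.07 ± 0.41 (unadjusted p = 0.0211). Nr1d2, the paralog REV-ERB beta, had 620, 736 and 992 in PRKO and 700, 894 and 1083 in wild-type uteri at 40 h, against 1347, 584 and 663 in PRKO and 1280, 674 and 1113 in wild-type uteri at 4 h (-0.12 ± 0.21). Its groups overlapped, as did those of Dbp and Nr1d1. The labels do not say what a replicate number marks, and whether the hour of dissection differed between numbers was not tested.

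**Figure D3:**
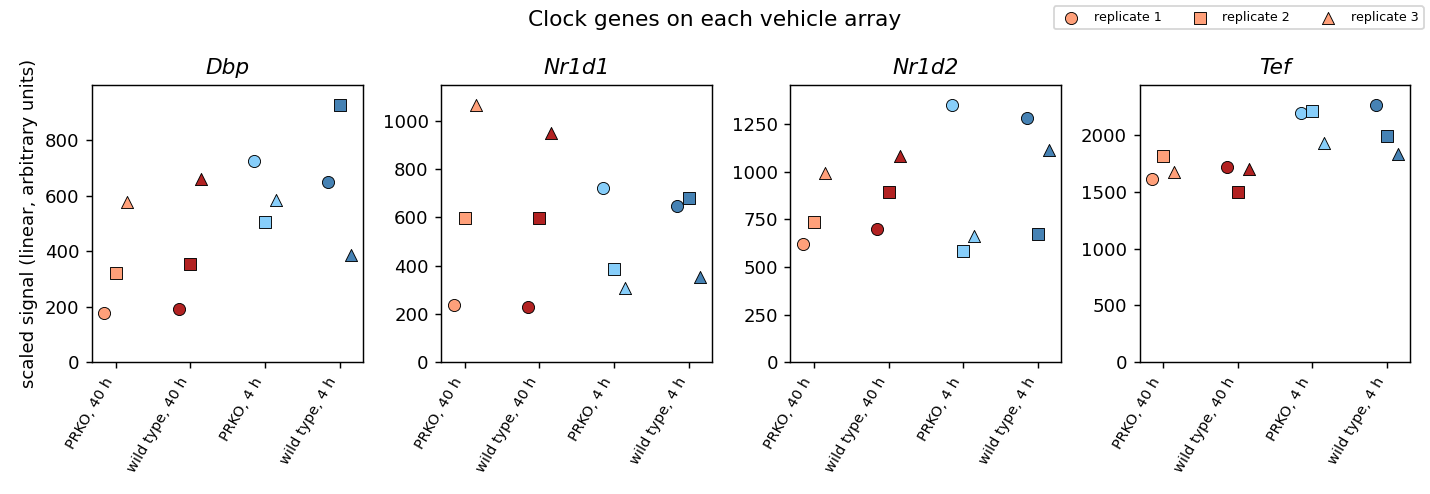
Scaled signal (linear axes from 0) of Dbp, Nr1d1, Nr1d2 and Tef on each vehicle array, by genotype and time, with a marker shape for each replicate number. For Dbp and Nr1d1 at 40 h the same numbers match across the genotypes while replicates 1 and 3 lie far apart. With 32 added to each signal, as in the fit, these replicates differ 2.92-fold to 4.05-fold. For Tef all 6 arrays of 40 h lie below all 6 of 4 h.

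The Tef promoter is shown for the E-box, the hexamer through which CLOCK and BMAL1 act (letters CACGTG, the same on both strands, in capitals), in the stretch from 200 to 51 bases before the first of its 2 annotated starts (RefSeq, GRCm38.p6).
Tef, chr15:81802473-81802622, plus strand: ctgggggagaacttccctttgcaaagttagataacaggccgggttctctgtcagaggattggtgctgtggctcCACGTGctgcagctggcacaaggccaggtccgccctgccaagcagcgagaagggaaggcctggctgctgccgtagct
The hexamer was found in 3.56% of all 32851 windows of this length, a share per window and not per gene. It was found in 3 of the 15 measured clock genes with a promoter in the table (Tef, Per1 and Cry1), where any window of a gene counted. Of these 3, Tef passed.

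Among the largest rises were immunoglobulin and other family probe sets, whose arrays overlapped between the times. Of the 10 largest that passed, 5 named a single gene, 8 were of the family kind, and 9 overlapped, Psap being the exception. Ighm, the heavy chain of IgM, had 1513, 522 and 756 in PRKO and 427, 802 and 765 in wild-type uteri at 40 h, against 411, 193 and 277 in PRKO and 237, 160 and 613 in wild-type uteri at 4 h. On the log2 scale the difference was 1.27 ± 0.31 (adjusted p = 0.0498). Igkv10-96, a kappa variable segment, had 1259, 1088 and 1053 in PRKO and 265, 590 and 636 in wild-type uteri at 40 h, against 298, 292 and 511 in PRKO and 314, 181 and 528 in wild-type uteri at 4 h. The log2 fold change was 1.06 ± 0.24 (adjusted p = 0.0408). The PRKO arrays separated for both, and the wild-type arrays overlapped. The brightest probe sets of these genes gave 0.88 ± 0.32 for Ighm (adjusted p = 0.144) and 0.20 ± 0.09 for Igkv10-96 (0.209), and did not pass. Another of each did pass, at 0.77 for Ighm and 0.86 for Igkv10-96. Jchain, which joins secreted IgM and IgA, stood at 0.48 ± 0.20 (adjusted p = 0.196). The highest change of any probe set, at Ighg3, an IgG3 heavy chain (1.44 ± 0.36), did not pass (adjusted p = 0.0503), and other probe sets of that gene stood as low as -0.21.

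Across the 65 immunoglobulin probe sets, a list chosen after values were seen and so described without a test, 55 were above 0, 4 passed higher and 0 lower. Of all 12422 probe sets, 7051 were above 0, 198 (1.59%) passed higher and 145 (1.17%) lower. Of the 39 immunoglobulin probe sets with a mean signal of at least 200, 35 were above 0, beside 4391 of all 8188 such probe sets, with a median change of 0.58 (0.64 in PRKO and 0.29 in wild-type vehicle uteri, and 0.47 in PRKO uteri given P4), beside 0.01 over all of that brightness. These probe sets share sequence with many segments, so they are not independent readings. The T and B cell markers Cd3e (0.04 ± 0.07), Cd3g (0.03 ± 0.05), Cd8a (-0.08 ± 0.09) and the B cell receptor chain Cd79a (0.09 ± 0.06) did not pass, and 0 of these 4 had an unadjusted p under 0.05 in limma. Cd74, the invariant chain of MHC class II, had 3781, 4204 and 4539 in PRKO and 4085, 3568 and 5041 in wild-type uteri at 40 h, against 2742, 3215 and 2659 in PRKO and 2890, 3887 and 3378 in wild-type uteri at 4 h. Its log2 fold change was 0.43 ± 0.10 (adjusted p = 0.0411). Its groups overlapped through wild type 4 h replicate 2, and leaving out any array but wild type 4 h replicates 2 and 3 ended the call (adjusted p at most 0.108). It was the 1 gene of 11 of that list to pass, beside 2.05% of all genes with a probe set that rose. The list's median was 0.16, with H2-Aa at 0.27 ± 0.11 and H2-Eb1 at 0.18 ± 0.08. In bulk tissue, more cells of a type and more RNA per cell cannot be told apart.

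**Figure D4:**
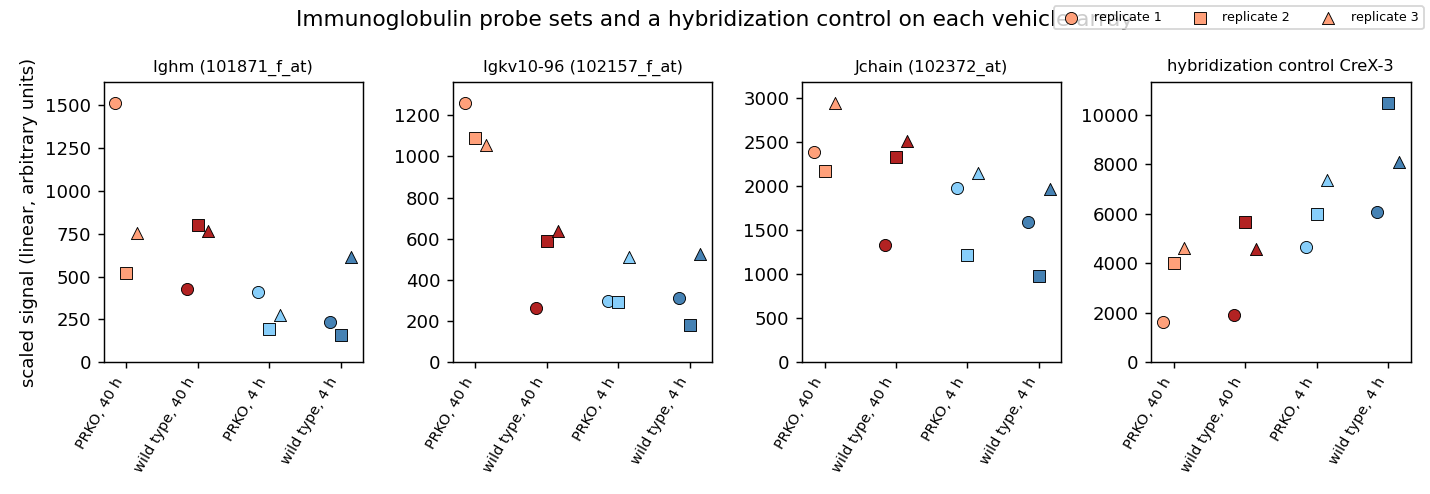
Scaled signal (linear axes from 0) of 3 immunoglobulin-related probe sets and of the spiked hybridization control CreX-3 on each vehicle array, by genotype and time, with a marker shape for each replicate number. Ighm and Igkv10-96 are higher at 40 h with overlap in wild type, and CreX-3 runs from 1637 to 5650 at 40 h, against 4670 to 10470 at 4 h.

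The cell type markers were summed up as scores. A score was taken as the mean log2 signal of each list's measured genes. The smooth muscle score was 11.6 ± 0.05 at 40 h and 11.8 ± 0.15 at 4 h (SD, n = 6 each; difference -0.16, exact permutation p = 0.06, adjusted 0.21). The changes of all 8 genes were below 0, the lowest being Actg2 (-0.32 ± 0.13) and Myl9 (-0.30 ± 0.13). None of them passed in limma, and 4 were lower at an unadjusted p under 0.05. Of all 12422 probe sets, 2631 reached that level in either direction. The mast cell score differed by 0.13 (p = 0.015 by the same exact test, adjusted 0.175), the erythroid score by 0.39 (p = 0.025, adjusted 0.175), and the adipocyte score by -0.03 (p = 0.82, adjusted 0.883). In PRKO uteri given P4 the differences were 0.10 for smooth muscle, -0.005 for mast cells, 0.02 for erythroid cells and -0.27 for adipocytes. The erythroid list held Hba-a1, an alpha globin (0.56 ± 0.18, adjusted p = 0.107), and Alas2, which starts haem synthesis in red cells (0.22 ± 0.07, 0.089). None of the 14 scores passed after adjustment, and the part of cell composition or of the hybridization controls in any change above was not tested beyond the covariate fit. Among single markers, Cpa3, a mast cell protease, rose at 1 probe set (0.45 ± 0.07, adjusted p = 0.0112), which held with any array left out, and its second probe set gave -0.05. The skeletal muscle genes Myh4 (0.32) and Mylpf (0.24) passed at dim probe sets. Their other probe sets gave -0.01 for Myh4 and 0.34 for Mylpf (adjusted p = 0.0738), and both calls were lost without any 1 of 6 arrays for Myh4 and 8 for Mylpf, PRKO 40 h replicate 2 and PRKO 4 h replicate 3 among them (at most 0.109).

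Hormone receptors and hormone-responsive genes stayed near the background. Of 31 measured oestrogen-regulated uterine genes, 1 rose and 1 fell, and of 31 progesterone targets 1 rose and 1 fell, with medians of 0.01 and 0.02. The background was 2.05% of all genes with a probe set that rose and 1.48% with one that fell. Esr1, oestrogen receptor alpha, rose at 1 of 4 probe sets (0.54 ± 0.10, adjusted p = 0.018), with a lowest, median and highest signal of 582, 669 and 722 at 40 h, against 384, 426 and 588 at 4 h, and its others gave -0.09, -0.09 and 0.20. Txnrd1, a thioredoxin reductase, fell (-0.35 ± 0.06, adjusted p = 0.0112), with 557, 592 and 627 at 40 h, against 702, 754 and 836 at 4 h, no overlap, and the call kept with any array left out. Bmp2, a growth factor of decidualization, rose (0.33 ± 0.06, adjusted p = 0.019), by 0.48 in PRKO and 0.18 in wild-type uteri, with no overlap between the times. Its other probe sets gave 0.09 and 0.01. The Esr1 call was lost without wild type 40 h replicate 2 or PRKO 4 h replicate 3 (adjusted p at most 0.0563), and that of Bmp2 without PRKO 40 h replicates 2 or 3 or PRKO 4 h replicate 3 (at most 0.0656).

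Few growth factor and matrix genes passed. Of 37 growth factor and cytokine genes, 3 rose and 1 fell, with a median of 0.09, beside 2.05% of all genes that rose and 1.48% that fell. Besides Bmp2, Igfbp3 rose (0.60 ± 0.14, adjusted p = 0.0402), which binds insulin-like growth factors, and Pdgfa (0.45 ± 0.11, 0.0426), a mitogen of stromal cells. The other Igfbp3 probe set, at the 97.25th percentile of signal, gave 0.30 ± 0.15 (0.282). Lifr, the receptor of leukaemia inhibitory factor, fell at 1 of 5 probe sets (-0.44 ± 0.11, 0.0479). Pdgfa had a lowest, median and highest signal of 1120, 1243 and 1278 at 40 h, against 688, 950 and 1092 at 4 h, without overlap. Of 40 collagen and matrix genes, 2 rose and 2 fell, with a median of 0.00. The collagen I chain Col1a2 rose (0.46 ± 0.11, 0.047), with 0.13 at its other probe set, and so did Timp2, a protease inhibitor (0.21 ± 0.05, 0.0498), with 0.49 (0.058) at its brightest probe set. The Timp2 call was kept in 6 of 12 settings that kept all arrays (adjusted p at most 0.197). Postn, a matricellular protein (-0.51 ± 0.11, 0.0374), and the laminin chain Lamb2 (-0.33 ± 0.06, 0.0214) fell. The calls of Igfbp3, Pdgfa, Lifr, Col1a2, Timp2, Postn and Lamb2 were each lost without 5 to 11 of the 12 arrays, with an adjusted p of at most 0.123. PRKO 40 h replicates 1 and 2 were among those arrays for each of these genes.

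Metabolic and housekeeping lists gave few calls, several of them at probe sets unlike the others of the gene. Over all genes, 2.05% had a probe set that rose and 1.48% one that fell. Of 22 genes of fatty acid oxidation, 2 rose, both at dim probe sets: Cpt2, of the carnitine shuttle (0.38 ± 0.05, 6.92nd percentile; -0.02 at its bright probe set), and Acadvl, of very long chain oxidation (0.31 ± 0.05; 0.06 at its other). Of 37 genes of oxidative phosphorylation 1 fell, Ndufa5, a complex I subunit (-0.38 ± 0.06, adjusted p = 0.0135). Of 21 ribosomal protein genes 3 rose, each at a probe set that was not the gene's brightest: Rps4x (0.46; -0.18 at the brightest), Rps24 (0.34; -0.32 at the brightest) and Rps29 (0.25; 0.09 at the other). Without PRKO 40 h replicate 2 the calls of Ndufa5, Rps4x, Rps24 and Rps29 were lost, and that of Rps29 also without PRKO 40 h replicate 3, wild type 40 h replicate 2 or PRKO 4 h replicate 3 (adjusted p at most 0.0698). None of 35 cell cycle, 22 cholesterol and fatty acid synthesis, 21 interferon, 16 endoplasmic reticulum stress, 15 clock output and 13 hypoxia genes passed, and their medians lay between -0.03 and 0.05. At an unadjusted p under 0.05, 4 cell cycle genes were higher and 2 lower, and 1 synthesis gene was higher and 4 lower. At that level the interferon list had 2 higher and 1 lower, the endoplasmic reticulum list 2 and 2, the clock output list 1 and 2, and the hypoxia list 1 and 1. Of all 12422 probe sets, 2631 reached it in either direction, a share per probe set and not per gene. Cirbp, the cold-inducible RNA-binding protein of the clock output list, stood at 0.45 ± 0.14 (adjusted p = 0.0883).

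The genotypes were then taken apart. Within the limma fit of all 12 arrays, 0 probe sets passed in PRKO uteri alone (0%), with 1201 at an unadjusted p under 0.05 and a smallest adjusted p of 0.105. In wild-type uteri alone 0 passed (0%), with 1653 at that level and a smallest adjusted p of 0.0592. The difference between the genotypes in the change with time gave 0 calls (0%) and 134 probe sets at an unadjusted p under 0.05, where 621 would be expected by chance. This count is no measure of how alike the genotypes are, because the fit took the arrays as independent. Same-numbered arrays of the genotypes had correlations of 0.04 to 0.60 at 4 h and -0.07 to 0.23 at 40 h. What effects shared by such arrays within 1 time do to the averaged p-values was not tested. A fit with a replicate block (578 calls) cannot show it, because each number had a single term for both times. The called probe sets had median changes of 0.29 in PRKO and 0.36 in wild-type uteri where higher, and of -0.37 in PRKO and -0.42 in wild-type uteri where lower. Across all 12422 probe sets the changes of the genotypes had a Pearson r of 0.67, a description over probe sets of the same arrays.

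The P4 arrays of PRKO mice, which lack the receptor of that hormone, gave a second reading of the same times. In PRKO uteri given P4, 1 probe set passed (0.00805%) and 1498 had an unadjusted p under 0.05. It was of Gap43, a growth cone protein, which stood at 0.04 in vehicle uteri and at 0.72 here (adjusted p = 0.0365). Over all 12422 probe sets the median change here was -0.03. Of the 198 probe sets higher in vehicle uteri, 182 were above 0 here. An unadjusted p under 0.05 in that direction was found for 34 of them (17.2%), beside 4.88% of all probe sets. Of the 145 lower ones, 130 were below 0 and 35 (24.1%) passed that level, beside 7.18% of all. All 3 arrays of 40 h lay above all 3 of 4 h for 45 of the 198 (6.33% of all probe sets did), and below them for 31 of the 145 (12.6% of all). The median change of the higher ones was 0.33 in vehicle uteri and 0.17 in PRKO uteri given P4. That of the lower ones was -0.39 in vehicle uteri and -0.15 in PRKO uteri given P4. These probe sets were chosen for their change in vehicle uteri, which favours larger values there. The r across all probe sets was 0.52. The hybridization controls were lower at 40 h on the P4 arrays of PRKO mice as well, with a difference of -0.97 on the log2 scale. An array batch that follows time cannot be told apart from time in either set.

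**Figure D5:**
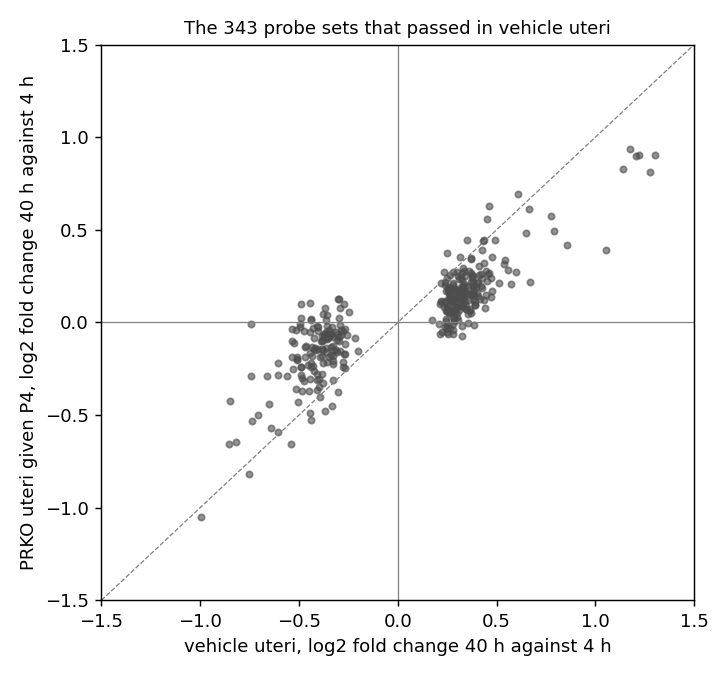
Log2 fold change at 40 h against 4 h of the 343 probe sets that passed in vehicle uteri (horizontal axis), against the same change in PRKO uteri given P4 (vertical axis), with 1 point per probe set and the dashed line marking equal change. Most points share a sign, 182 of 198 on the right and 130 of 145 on the left. Most lie nearer to 0 in the P4 arrays, which the choice by vehicle change favours.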

How the data were processed

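The authors deposited a table of signal intensity (linear, not logged) for every probe set of each array. Per the submitters' processing notes, the authors used MAS5 (version, settings and scaling not given in the sources used here). Vehicle arrays had a median signal of 323 to 343. Precision is limited by how few arrays there are. Arrays were brought to 500 as their 2%-trimmed mean, by factors of 0.962 to 1.03, and log2 of the signal plus 32 was used. The table held 12488 probe sets, of which 66 controls were left out and 12422 tested with no filter on dim signal. By the platform annotation 10833 name 1 gene, 396 several and 1193 none, covering 8251 genes, and 10817 of the first matched RefSeq by gene identifier.

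The 12 vehicle arrays were fitted as group means with limma 3.58.1 in R 4.3.3 (two-sided moderated tests with an intensity trend; residual degrees of freedom 8, prior 4.87). The 12 P4 arrays, PRKO and wild type, had a fit of their own. Benjamini-Hochberg adjustment ran across the 12422 probe sets, and the threshold was an adjusted p under 0.05. Scores were compared by an exact permutation of times within genotypes (400 arrangements, smallest p 0.005). Genes named are the 10 highest and 10 lowest passing changes without overlap between the times, all measured clock genes, and up to 4 passing members of each of 31 lists. The members and lists were chosen with earlier results of these data known. On 20 simulated data sets with 200 changed probe sets each, the averaged comparison recovered 83.1% of changes of log2 0.5, 99.0% of 1 and 100% of 2, and 5.17% of its calls were unchanged. The noise was drawn separately for each probe set and array, so effects shared by arrays or probe sets were absent. These shares hold for that setting and do not give the error rate of the real arrays.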

Additional observations from a re-analysis of the deposited data

How the results depend on the processing

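For the 343 calls, an offset of 16 (317) or 64 (344), no intensity trend (345), quantile normalization (360) and the deposited signal (443) stayed within 1.5 times. A mean signal of at least 200 gave 210, all 24 arrays 750, array weights 809, a replicate block 578, 1 probe set per gene 170, the Gapdh ratio as a covariate 639, the adipose score 205, the hybridization control score (added after seeing the data) 0, and an additive fit 562. Leaving out each array gave 51 to 633. PRKO uteri alone gave 6 with weights, 28 from their 6 arrays alone, and 0 to 3 with arrays left out. Wild-type uteri alone gave 2, 36, 5 and 1 calls with the signal filter, all 24 arrays, the block and the Gapdh ratio, and 0 to 24 with arrays left out. The genotype difference gave 0 throughout these. PRKO uteri given P4 gave 2 with an offset of 64, the deposited signal, quantile normalization or no trend, 0 with the filter, 2616 with weights, 4 with the block, and 0 to 9 with arrays left out. The causes were not tested.

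The replicate numbers carry no stated pairing: same-numbered arrays of 40 h and 4 h had correlations of 0.03 to 0.11 among PRKO arrays and -0.08 to 0.14 among wild-type arrays, not all over 0.1. Each of the 3 PRKO arrays of 40 h, and 1 of the 3 of wild type, correlated best with its own number at 4 h. Between genotypes, same-numbered arrays had -0.07 to 0.23 at 40 h and 0.04 to 0.60 at 4 h. No named gene reversed. Of 639 values of the 48 passing named genes under settings that kept all arrays, 560 kept the call, and of 576 with an array left out 386 did. No score changed its side of the threshold. Dim probe sets near the offset have compressed changes, and no detection calls were used.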
